A study of Mus musculus with 27 samples.

Results

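The genes described here are Nfe2l2, which encodes the transcription factor NRF2, and 9 genes tied to it in the antioxidant response of the liver, namely Keap1, Gclc, Gclm, Txnrd1, Srxn1, Hmox1, Gsr, Osgin1 and Slc7a11. They were taken from the table of 43346 genes by matching each Ensembl identifier to its GENCODE M21 symbol, and all 10 were found. RNA was sequenced from hepatocytes, the main cell type of the liver, of female mice aged 12 weeks. The groups are 9 inbred strains, each with 3 libraries that the labels call biological replicates: the wild-derived CAST/EiJ, PWK/PhJ and WSB/EiJ and the laboratory strains A/J, NZO/HlLtJ, DBA/2J, C57BL/6J, NOD/ShiLtJ and 129S1/SvImJ. No treatment or engineered allele is named for any group. The study as a whole set expression beside chromatin marks across the strains, and only expression is analysed here.

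NRF2 is held in the cytoplasm by KEAP1, an adaptor that presents it to a ubiquitin ligase for destruction. Electrophiles and oxidants modify cysteines of KEAP1, NRF2 then escapes degradation, enters the nucleus and binds antioxidant response elements as a dimer with a small MAF protein. Its targets make glutathione, reduce thioredoxin and peroxiredoxins, degrade heme and import cystine, and in the liver they protect hepatocytes from reactive drug metabolites. Since this control acts mainly on the protein, the transcript level of Nfe2l2 is not a measure of NRF2 activity.

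Promoter sequence is shown first, because the members are grouped by binding of the same factor. RefSeq windows on the GRCm38.p6 build, from 250 bases before to 50 bases after a transcript start, were found for 7 of the 10 members (9 windows), but not for Gclc, Hmox1 or Gsr. They were searched on both strands for the core of the antioxidant response element, TGACNNNGC, and for the related AP-1 type site TGACTCA, and a site that fits both patterns would count for both. The first motif occurred in 12.4% of 32851 windows of this length and the second in 5.2%. A match was found in windows of 5 members, and each match describes letters only, not binding. The Srxn1 window held TGACTCA on the reverse strand 102 and 45 bases before the start, and TGACNNNGC 28 bases after it. Gclm had TGACNNNGC on the reverse strand 134 bases before its start. The stretches from 160 to 11 bases before the start of these genes, at chr3:122245397-122245546 and chr2:152105364-152105513, forward strand, are given with the motifs in capitals as they read on that strand.
Gclm: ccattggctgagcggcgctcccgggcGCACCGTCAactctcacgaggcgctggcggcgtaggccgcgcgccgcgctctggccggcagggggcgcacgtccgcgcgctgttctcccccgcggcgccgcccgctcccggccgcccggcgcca
Srxn1: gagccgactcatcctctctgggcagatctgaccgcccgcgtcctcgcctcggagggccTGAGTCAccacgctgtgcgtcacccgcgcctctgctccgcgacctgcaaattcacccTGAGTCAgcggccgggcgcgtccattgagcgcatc

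Short contexts are given for the other matches, because the same stretch of Osgin1, Txnrd1 and Nfe2l2 overlaps annotated exons and the remaining Srxn1 match lies after the start (chr2:152105542-152105570, forward strand). Osgin1 had TGACTCA 97 bases before its start (chr8:119437040-119437066, forward strand). In Txnrd1, which has several starts, a reverse-strand TGACNNNGC stood 92 bases before the second of its 3 starts (chr10:82859104-82859132, forward strand). The window of Nfe2l2 itself held TGACNNNGC 240 bases before the start (chr2:75704885-75704913, reverse strand). The letters of these motifs were not found in the windows of Keap1 and Slc7a11 or in the other windows of Txnrd1.
Osgin1: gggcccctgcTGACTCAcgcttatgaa
Txnrd1: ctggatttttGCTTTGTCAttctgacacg
Nfe2l2: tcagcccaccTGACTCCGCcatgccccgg
Srxn1: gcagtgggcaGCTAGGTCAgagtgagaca

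Library totals ran from 17015932 to 35078483 estimated counts. Of 10 hepatocyte markers (such as Alb, Ttr and Cps1), 10 had counts in every library, and their summed level ran from 105301.3 to 317926.3 CPM (counts per 1000000 counts of the library's adjusted size). Markers of Kupffer cells, the macrophages of the liver, also had counts in every library for 10 of 10 genes, with a sum of 35 to 442.1 CPM. Those of liver endothelial cells summed to 57.2 to 710.9 CPM, and PWK/PhJ replicate 1 was highest for both lists. In bulk RNA, fewer cells of a type and less RNA per cell cannot be told apart, so these sums are not cell numbers. Differences were tested with edgeR's quasi-likelihood model over all 27 libraries, with p-values adjusted over 14482 genes by the Benjamini-Hochberg method and called under 0.05.

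Of the 10 members, 9 were expressed highly enough to be tested and 8 of these differed among the 9 strains. Such a difference was called for 74.2% of all tested genes, so the members' share lies near the background of strain variation. The exceptions were Osgin1, which was tested and not called, and Slc7a11, which was too low to test. Between the highest and the lowest strain, the median fold was 2.1 over the 9 tested members and 2.27 over all tested genes. Strain accounted for a median of 76.5% of the variance of log2 CPM in the members and 66.6% in all tested genes. This share is not corrected for the number of strains, so it would be positive without any strain effect. Divided by the length of the longest transcript, Gclc (64.5 CPM per kb) and Osgin1 (62.9 CPM per kb) were the most abundant members. Gclm (23.2), Txnrd1 (21.9), Nfe2l2 (18), Gsr (14.1), Keap1 (9.9), Srxn1 (9.22) and Hmox1 (4.66 CPM per kb) followed, and Slc7a11 was at 0.00459 CPM per kb.

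**Figure D1:**
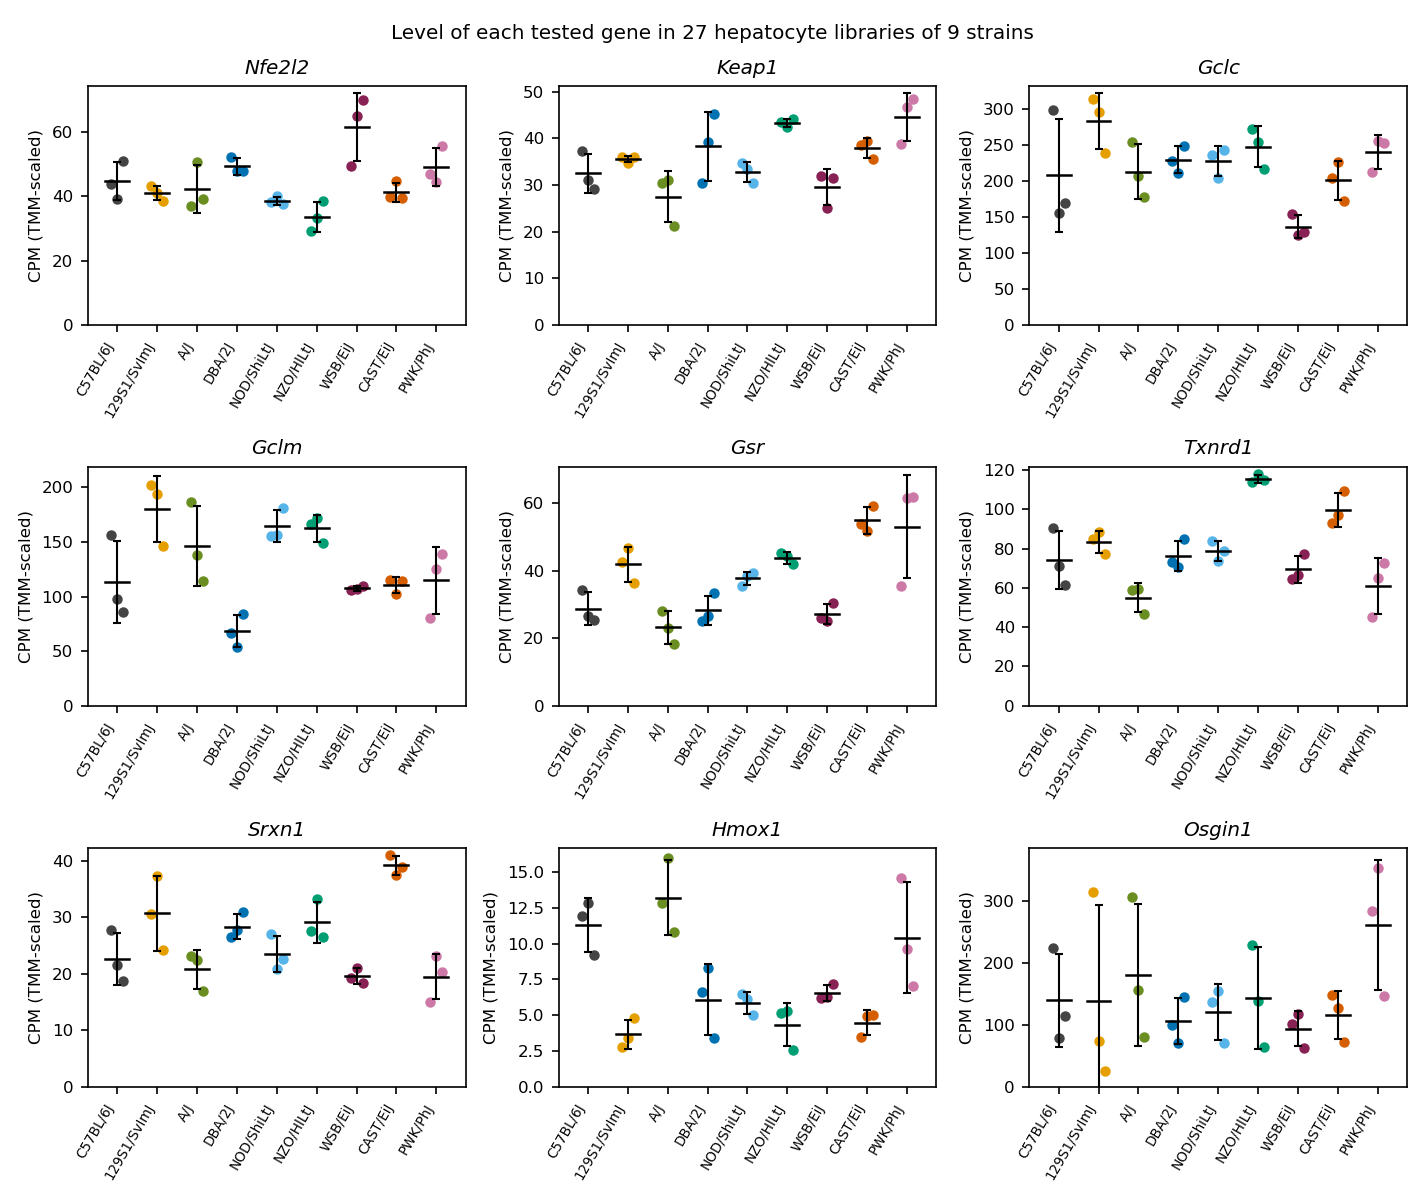
Level of the 9 tested members in CPM (scaled counts) in the 9 strains. Points are the 27 libraries, horizontal lines are the mean of 3 libraries and error bars are 1 SD. Osgin1 spreads widely within strains, from 24.8 to 315.7 CPM in 129S1/SvImJ, where the SD exceeds the mean and its bar is cut at 0. Txnrd1 in NZO/HlLtJ and Srxn1 in CAST/EiJ lie above all libraries of the other strains.

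The factor itself, Nfe2l2 (ENSMUSG00000015839, chr2:75675513-75704641, reverse strand, GRCm38), was highest in WSB/EiJ and lowest in NZO/HlLtJ, a 1.83-fold range (edgeR adjusted p 0.000802). In WSB/EiJ its 3 libraries were at 49.6, 65.1 and 70 CPM (mean 61.6 ± 10.7, SD). In NZO/HlLtJ they were at 29.2, 33.2 and 38.6 CPM (33.7 ± 4.74). All WSB/EiJ libraries lay above all NZO/HlLtJ libraries. The lowest WSB/EiJ library was below the highest library of DBA/2J (52.3 CPM), PWK/PhJ (55.7), C57BL/6J (50.9) and A/J (50.8). Between these extremes came DBA/2J (49.3 ± 2.57 CPM), PWK/PhJ (49.1 ± 5.88), C57BL/6J (44.7 ± 5.88), A/J (42.3 ± 7.38), CAST/EiJ (41.3 ± 2.93), 129S1/SvImJ (40.9 ± 2.18) and NOD/ShiLtJ (38.7 ± 1.26). Each strain's libraries overlapped those of the next in this order. Against the mean of the other 8 strains, WSB/EiJ was higher by 0.54 ± 0.10 (log2 difference ± SE, edgeR adjusted p 0.00034). Nfe2l2 in NZO/HlLtJ was lower, at a log2 difference of -0.44 ± 0.11 (edgeR adjusted p 0.00627). The latter call was lost without NZO/HlLtJ replicate 1 (log2 difference -0.34, edgeR adjusted p 0.091) and with the mean levels of the Kupffer and endothelial markers as covariates (0.051), where the log2 difference was -0.39.

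Keap1 (ENSMUSG00000003308, chr9:21229730-21239361, reverse strand), the inhibitor, had the narrowest range of the members, 1.62-fold (edgeR adjusted p 0.00258). It was at 38.8, 46.6 and 48.5 CPM in PWK/PhJ (44.6 ± 5.12) and at 42.4 to 44.1 CPM in NZO/HlLtJ (43.3 ± 0.877). In A/J, the lowest strain, its libraries were at 30.4, 31 and 21.1 CPM (27.5 ± 5.55). Neither of the high strains overlapped A/J. NZO/HlLtJ thus had the lowest Nfe2l2 mean and the second highest Keap1 mean. Means in the other strains lay between 29.5 CPM in WSB/EiJ and 38.3 CPM in DBA/2J, and among neighbours in the order only 129S1/SvImJ and NOD/ShiLtJ did not overlap. Against the other 8 strains, Keap1 was higher in PWK/PhJ (log2 difference 0.38 ± 0.11, edgeR adjusted p 0.00901) and NZO/HlLtJ (0.33 ± 0.11, 0.0284) and lower in A/J (-0.41 ± 0.12, 0.0125). The A/J call was lost without A/J replicate 3 (log2 difference -0.26, edgeR adjusted p 0.202). The PWK/PhJ call was lost without its replicate 2 (log2 difference 0.34, 0.0624) or replicate 3 (0.31, 0.0813). The NZO/HlLtJ call was lost without any of its 3 libraries, at log2 differences of 0.32 to 0.35 (edgeR adjusted p 0.0897 to 0.107), and with the marker covariates (log2 difference 0.17, 0.416). With these covariates the PWK/PhJ difference was 0.62 (edgeR adjusted p 0.00186). Keap1 had counts that were not whole in 26 libraries, and an antisense gene, Gm16754, overlaps it with a mean count of 12.9, so its level is uncertain.

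Glutathione synthesis starts with glutamate-cysteine ligase, whose catalytic subunit is encoded by Gclc (ENSMUSG00000032350, chr9:77754535-77794485, forward strand) and whose modifier subunit by Gclm (ENSMUSG00000028124, chr3:122245557-122270732, forward strand). Both had their highest mean in 129S1/SvImJ, and they differed in which strain was lowest. Gclc was at 313.6, 296.7 and 239.3 CPM in 129S1/SvImJ (283.2 ± 38.9) and at 154.5, 125.4 and 129.3 CPM in WSB/EiJ (136.4 ± 15.8), a 2.08-fold range (edgeR adjusted p 0.00604). WSB/EiJ lay below every library of the other 8 strains, the nearest being C57BL/6J replicate 2 at 156 CPM. Thus the strain with the highest Nfe2l2 transcript had the lowest Gclc. Gclc means of the other 7 strains lay between 200.9 ± 26.8 CPM (CAST/EiJ) and 247.9 ± 28 CPM (NZO/HlLtJ), each overlapping its neighbours. C57BL/6J spanned 156 to 298.7 CPM through its replicate 1. Gclc in WSB/EiJ differed from the other 8 strains by a log2 value of -0.75 ± 0.16 (edgeR adjusted p 0.00082), and 129S1/SvImJ was higher by 0.43 ± 0.14 (edgeR adjusted p 0.0348). The 129S1/SvImJ call was lost without its replicate 1 (log2 difference 0.35, 0.217) or 2 (0.40, 0.158) and with the marker covariates (log2 difference 0.39, edgeR adjusted p 0.0795).

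Gclm ranged 2.64-fold (edgeR adjusted p 0.000207). Its level was 201.7, 194 and 146 CPM in 129S1/SvImJ (180.6 ± 30.2), and 67, 54.2 and 83.8 CPM in DBA/2J (68.3 ± 14.8). The DBA/2J libraries lay below all those of WSB/EiJ, the next strain up (105.8 to 109.9 CPM), and overlapped only PWK/PhJ replicate 1 at 80.5 CPM. DBA/2J had 229.6 ± 18.9 CPM of Gclc, in the middle of the strains, so the subunits did not share their lowest strain. NOD/ShiLtJ (164.4 ± 14.6 CPM), NZO/HlLtJ (162.4 ± 12.2) and A/J (146.3 ± 36.6) followed 129S1/SvImJ for Gclm, and PWK/PhJ, C57BL/6J, CAST/EiJ and WSB/EiJ had means of 107.4 to 115 CPM. Against the other 8 strains, DBA/2J was lower by a log2 difference of -0.98 ± 0.18 (edgeR adjusted p 0.000302). Gclm was higher in 129S1/SvImJ (0.60 ± 0.15, edgeR adjusted p 0.00842), a call lost without its replicate 1 (log2 difference 0.51, 0.0942) or 2 (0.54, 0.0737) and with the marker covariates (log2 difference 0.41, 0.0539). A higher level in NZO/HlLtJ only just passed (0.42 ± 0.16, edgeR adjusted p 0.0459) and was lost on leaving out any of 15 of the 27 libraries, at log2 differences of 0.38 to 0.49 and adjusted p of 0.0506 to 0.192, and with the marker covariates (log2 difference 0.07, 0.834). These were any library of CAST/EiJ or NZO/HlLtJ, C57BL/6J replicate 2 or 4, DBA/2J replicate 2 or 3, WSB/EiJ replicate 2 or 4, A/J replicate 2, 129S1/SvImJ replicate 3 and NOD/ShiLtJ replicate 1. The Gclm counts were not whole in 14 libraries, and Gm17494, on the opposite strand, overlaps it with a mean count of 25.8.

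Oxidised glutathione is returned to its reduced form by glutathione reductase, the product of Gsr (ENSMUSG00000031584, chr8:33652523-33698163, forward strand). Gsr had the largest F statistic of the members (12, edgeR adjusted p 7.05e-06), and strain accounted for 83% of its variance. It was at 53.9, 51.7 and 59.3 CPM in CAST/EiJ (55 ± 3.93), at 35.5, 61.7 and 62 CPM in PWK/PhJ (53.1 ± 15.2), and at 28.2, 23.2 and 18.4 CPM in A/J (23.3 ± 4.93). All CAST/EiJ libraries lay above those of every strain but PWK/PhJ, where replicate 1 stood well below the other pair. NZO/HlLtJ (43.9 ± 1.77 CPM), 129S1/SvImJ (42 ± 5.17) and NOD/ShiLtJ (37.8 ± 1.94) formed the middle of the order. NOD/ShiLtJ did not overlap C57BL/6J (28.8 ± 4.92 CPM), below which came DBA/2J (28.3 ± 4.39), WSB/EiJ (27.2 ± 2.96) and A/J. Against the other 8 strains, Gsr was higher in CAST/EiJ (log2 difference 0.68 ± 0.13, edgeR adjusted p 0.000168) and PWK/PhJ (0.62 ± 0.13, 0.000502) and lower in A/J (-0.72 ± 0.15, 0.000836) and WSB/EiJ (-0.46 ± 0.14, 0.0203). Only the WSB/EiJ call was lost in any of the fits, without its replicate 2 (log2 difference -0.43, edgeR adjusted p 0.0979) or replicate 3 (-0.40, 0.13). With the marker covariates the PWK/PhJ difference was 0.99 (edgeR adjusted p 1.3e-05).

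Thioredoxin reductase 1 keeps thioredoxin reduced in the cytosol and is encoded by Txnrd1 (ENSMUSG00000020250, chr10:82833951-82897712, forward strand). NZO/HlLtJ stood above every other strain, at 113.8, 117.9 and 115 CPM (115.6 ± 2.12). CAST/EiJ came next at 92.9, 96.9 and 109.2 CPM (99.7 ± 8.51), and A/J was lowest at 59, 59.6 and 46.5 CPM (55 ± 7.36). The NZO/HlLtJ libraries did not overlap CAST/EiJ, and CAST/EiJ did not overlap any of the remaining strains. Those ran from 83.4 ± 5.73 CPM in 129S1/SvImJ down to 61 ± 14.1 CPM in PWK/PhJ, with each neighbour overlapping. The range was 2.1-fold (edgeR adjusted p 6e-05). Txnrd1 differed from the mean of the other 8 strains by 0.65 ± 0.11 in NZO/HlLtJ (log2 difference, edgeR adjusted p 0.000115), 0.41 ± 0.11 in CAST/EiJ (0.00615), -0.55 ± 0.12 in A/J (0.00184) and -0.39 ± 0.12 in PWK/PhJ (0.016). The strain with the lowest Nfe2l2 transcript therefore had the highest Txnrd1. The CAST/EiJ call was lost without its replicate 5 (log2 difference 0.34, edgeR adjusted p 0.0684), and the PWK/PhJ call without its replicate 1 (log2 difference -0.21, 0.226), which was at 45.3 CPM against 64.9 and 72.8, and with the marker covariates (log2 difference -0.12, 0.56).

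Sulfiredoxin, the product of Srxn1 (ENSMUSG00000032802, chr2:152105516-152111376, forward strand), repairs over-oxidised peroxiredoxins. It was highest in CAST/EiJ, at 41, 37.6 and 39 CPM (39.2 ± 1.73), above all libraries of every other strain. It was lowest in PWK/PhJ at 15.1, 23.1 and 20.4 CPM (19.5 ± 4.06) and nearly as low in WSB/EiJ at 19.2, 21.1 and 18.4 CPM (19.6 ± 1.35). These low strains overlapped each other and A/J (20.8 ± 3.38 CPM). CAST/EiJ and PWK/PhJ, both high in Gsr, were thus at opposite ends for Srxn1, a 2.01-fold range (edgeR adjusted p 0.00014). The log2 difference from the other 8 strains was 0.71 ± 0.12 in CAST/EiJ (edgeR adjusted p 5.81e-05), -0.42 ± 0.14 in PWK/PhJ (0.0196) and -0.42 ± 0.14 in WSB/EiJ (0.0279). The PWK/PhJ call was lost without its replicate 1 (log2 difference -0.26, edgeR adjusted p 0.21) and with the marker covariates (log2 difference -0.02, 0.955), and the WSB/EiJ call without any of its 3 libraries, at log2 differences of -0.37 to -0.47 (0.0601 to 0.131).

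**Figure D2:**
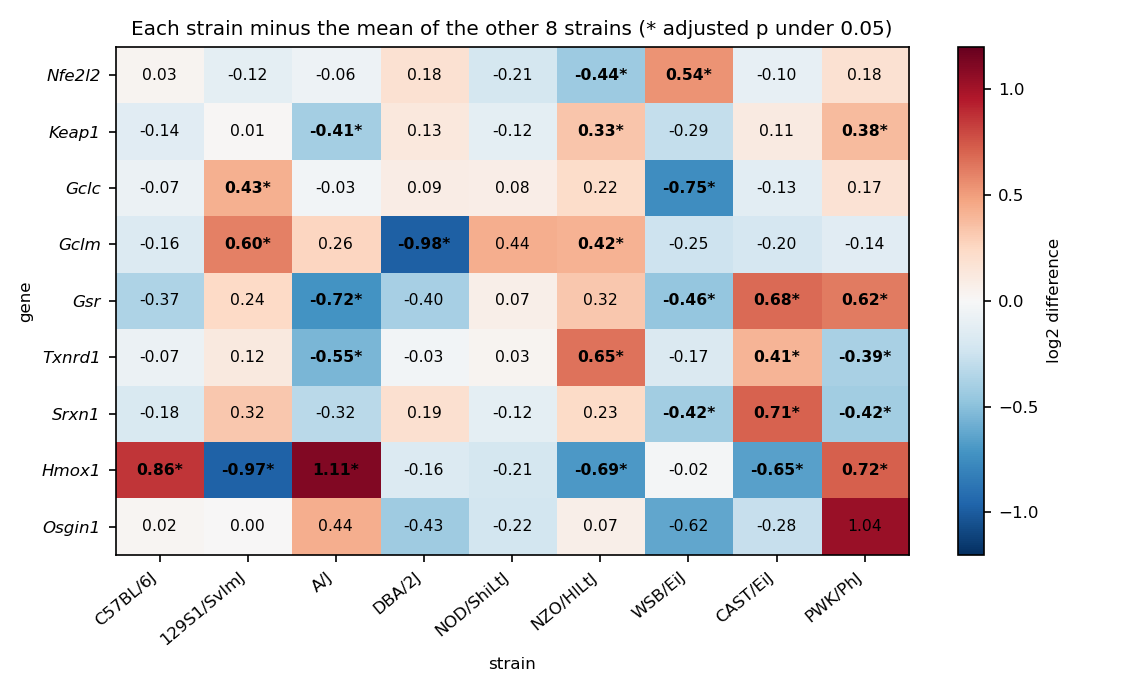
Log2 difference of each strain from the mean of the other 8 for the 9 tested members (rows, members; columns, strains; colour and printed value, log2 difference). A star marks an edgeR adjusted p under 0.05. Stars fall on 27 of the 81 cells, and NOD/ShiLtJ has none.

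Hmox1 (ENSMUSG00000005413, chr8:75093621-75100589, forward strand) encodes heme oxygenase 1, which degrades heme and in the liver is abundant in Kupffer cells as well as inducible in hepatocytes. It had the widest range of the called members, 3.61-fold (edgeR adjusted p 2.57e-05). Its level was 12.8, 16 and 10.8 CPM in A/J (13.2 ± 2.61), 11.9, 12.8 and 9.21 CPM in C57BL/6J (11.3 ± 1.86) and 14.6, 9.62 and 7.04 CPM in PWK/PhJ (10.4 ± 3.83). The lowest strain was 129S1/SvImJ, at 2.76, 3.41 and 4.79 CPM (3.65 ± 1.04). No A/J or C57BL/6J library overlapped any of WSB/EiJ, DBA/2J, NOD/ShiLtJ, CAST/EiJ, NZO/HlLtJ or 129S1/SvImJ, while each strain overlapped the next in the order. Against the other 8 strains, Hmox1 was higher in A/J (log2 difference 1.11 ± 0.20, edgeR adjusted p 0.000248), C57BL/6J (0.86 ± 0.21, 0.00437) and PWK/PhJ (0.72 ± 0.21, 0.00848). It was lower in 129S1/SvImJ (-0.97 ± 0.24, edgeR adjusted p 0.00665), NZO/HlLtJ (-0.69 ± 0.24, 0.0329) and CAST/EiJ (-0.65 ± 0.24, 0.0353).

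The summed Kupffer markers ordered the strains much as Hmox1 did. The sum averaged 250.1 CPM in C57BL/6J (209.9 to 280.7), 248 CPM in PWK/PhJ (150.4 to 442.1) and 208.9 CPM in A/J (136.1 to 292.5), the same 3 strains that were highest in Hmox1. It averaged 69.2 CPM in NZO/HlLtJ, 66 CPM in CAST/EiJ and 60.5 CPM in 129S1/SvImJ (42.7 to 91.2), the same 3 that were lowest. The endothelial sum was also highest in PWK/PhJ (392.3 CPM), C57BL/6J (215.3) and A/J (168.7). It was lowest in NZO/HlLtJ (75.1 CPM), 129S1/SvImJ (117.7) and CAST/EiJ (122.9), so this grouping was not particular to Kupffer markers. Within strains, the library highest in Hmox1 was also the highest in the Kupffer sum in 6 of 9 strains, PWK/PhJ replicate 1 among them, and the lowest library was the same in 5. With the mean levels of the Kupffer and endothelial markers as covariates, the A/J difference of Hmox1 was 0.52 ± 0.17 (edgeR adjusted p 0.0417). The C57BL/6J difference was then 0.12 ± 0.18 (0.83), that of 129S1/SvImJ -0.46 ± 0.17 (0.0842) and that of PWK/PhJ 0.42 ± 0.19 (edgeR adjusted p 0.11). A/J was thus the only strain still called for Hmox1, since NZO/HlLtJ (-0.42 ± 0.17, 0.119) and CAST/EiJ (-0.13 ± 0.17, edgeR adjusted p 0.59) were lost too. Several calls also depended on a library. PWK/PhJ was lost without its replicate 1, where the log2 difference was 0.40 (edgeR adjusted p 0.23). C57BL/6J was lost without its replicate 2 (0.77, edgeR adjusted p 0.0527), and 129S1/SvImJ without its replicate 1 (-0.81, 0.0803) or 2 (-0.92, 0.0516). NZO/HlLtJ and CAST/EiJ were lost without any of their own libraries (edgeR adjusted p 0.053 to 0.233), at -0.43 without NZO/HlLtJ replicate 3 and -0.49 without CAST/EiJ replicate 1, and at -0.73 to -0.84 without the others.

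**Figure D3:**
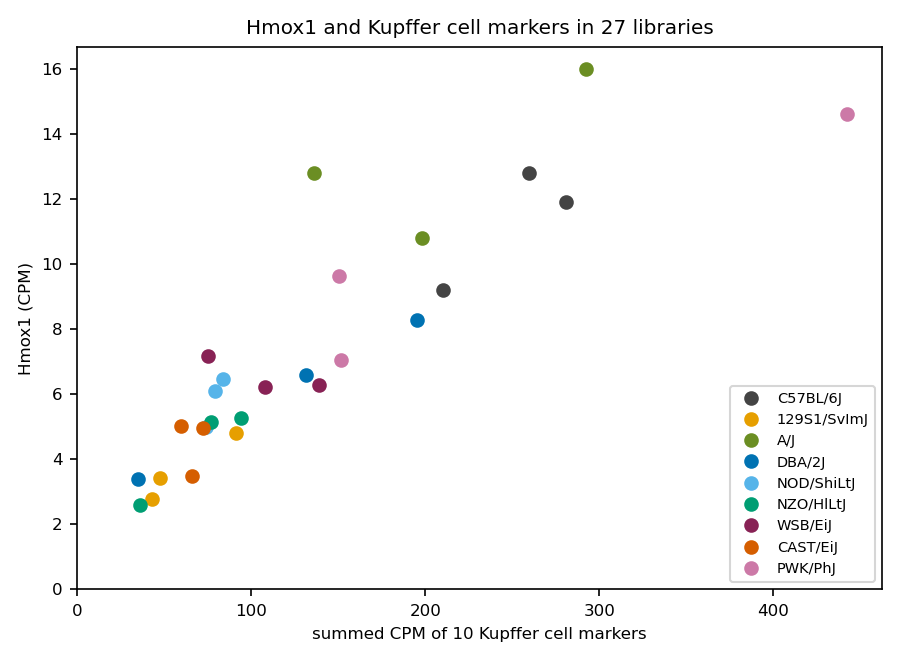
Hmox1 level (CPM, vertical axis) against the summed level of 10 Kupffer cell markers (CPM, horizontal axis) in the 27 libraries, coloured by strain. Libraries of A/J, C57BL/6J and PWK/PhJ have Kupffer sums of 136.1 CPM or more and Hmox1 of 7.04 CPM or more, and those of 129S1/SvImJ, NZO/HlLtJ and CAST/EiJ have sums of at most 94.3 CPM and Hmox1 of at most 5.26 CPM.

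Osgin1 (ENSMUSG00000074063, chr8:119434124-119446256, forward strand), an oxidative stress-induced growth inhibitor, was among the most abundant members and did not pass the test for strain (edgeR adjusted p 0.429). Strain accounted for 26.2% of its variance, a share that is not corrected for the number of strains and would be positive without any strain effect. Its libraries were at 315.7, 74.6 and 24.8 CPM in 129S1/SvImJ, a 12.7-fold range within a strain, and at 306.5, 155.8 and 81.2 CPM in A/J. In PWK/PhJ, the strain with the highest mean, they were at 284.9, 353.5 and 147.5 CPM (262 ± 104.9), and in WSB/EiJ, the lowest, at 101.5, 117.4 and 63.4 CPM (94.1 ± 27.7). Every strain overlapped its neighbours in the order of means. The SD within strains was 0.901 on the log2 scale, larger than in 95.6% of tested genes, whereas the other 8 tested members had SDs of 0.169 (Nfe2l2) to 0.404 (Hmox1). In the 7 strains that have a replicate 1, that library was the highest for Osgin1 in 5. Without 129S1/SvImJ replicate 1 the strain effect passed (edgeR adjusted p 0.0448), and over all fits that left out a library the value ran up to 0.762.

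Slc7a11 (ENSMUSG00000027737, chr3:49892526-50443614, reverse strand) encodes the cystine-glutamate exchanger that supplies cysteine for glutathione in many cultured cells. It had at most 5 counts in any library and 0 in 9 of the 27, with 32 counts in all. Its highest value was 0.163 CPM, and 3 counts, the limit that a count of 0 allows, correspond to 0.0759 to 0.155 CPM in these libraries. With no filter on low counts its edgeR adjusted p was 0.822, and no strain difference was detectable at this depth. The overlapping antisense gene Gm37854 had a mean count of 12.6, and whether reads were counted by strand is not given in the sources used here.

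Set out by strain, 27 of 81 tests of a member in a strain against the mean of the other 8 were called, 14 higher and 13 lower, where 24.1% of all such tests over the 14482 genes were called. The 9 comparisons share all libraries and are not independent of each other. In NZO/HlLtJ, 3 of the 9 members were higher (Keap1, Gclm and Txnrd1) and 2 lower (Nfe2l2 and Hmox1), against 14.8% and 12.9% of all genes. In CAST/EiJ, 3 were higher (Txnrd1, Srxn1 and Gsr) and Hmox1 was lower, where 20.1% and 17.8% of genes were called. PWK/PhJ had 3 higher (Keap1, Hmox1 and Gsr) and 2 lower (Txnrd1 and Srxn1; all genes 19.4% and 14.8%). In no strain did all tested members move the same way.

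Among the other strains, A/J was lower in 3 members (Keap1, Txnrd1 and Gsr) and higher in Hmox1, beside 11.6% of all genes lower and 15.9% higher. WSB/EiJ was lower in 3 (Gclc, Srxn1 and Gsr) and higher in Nfe2l2 (all genes 9.25% and 15.5%). In 129S1/SvImJ, 2 members were higher, the ligase subunits Gclc and Gclm, and Hmox1 was lower (all genes 10.5% and 7.86%). C57BL/6J had a single call, Hmox1 higher (all genes 11.6% higher and 6.5% lower), and DBA/2J a single call, Gclm lower (all genes 9.5% higher and 3.78% lower). NOD/ShiLtJ had 0 of 9 members called by edgeR, where 14.9% of all genes were called in either direction. Its count was 1 at an unadjusted p under 0.05, Gclm (164.4 ± 14.6 CPM, edgeR adjusted p 0.0573), and 1 with DESeq2. C57BL/6J and DBA/2J each had 2 members called with DESeq2 and 2 at an unadjusted p under 0.05, the second being Gsr (log2 differences -0.37 ± 0.14 and -0.40 ± 0.14, edgeR adjusted p 0.0737 and 0.0691). Of the 27 calls, 10 held in all 33 alternative fits: Nfe2l2 and Gclc in WSB/EiJ, Gclm in DBA/2J, Txnrd1 in A/J and NZO/HlLtJ, Srxn1 in CAST/EiJ, Hmox1 in A/J, and Gsr in A/J, CAST/EiJ and PWK/PhJ. The summed hepatocyte markers also differed between strains, averaging 273266.9 CPM in A/J and 225729.5 CPM in WSB/EiJ, 118051.2 CPM in NZO/HlLtJ and 113839.2 CPM in CAST/EiJ, and 130688.2 to 166550.0 CPM in the other 5 strains, and their part in the members' levels was not tested.

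Whether the transcript of the factor and those of the other members followed each other was asked over the 9 strain means of log2 CPM. Among 8 relations, Nfe2l2 had Pearson r of -0.68 with Gclc (exact two-sided permutation p 0.0538, adjusted over the 8 relations 0.265) and Spearman rho of -0.50 (exact p 0.178, adjusted 0.284). With Gclm, r was -0.64 (exact permutation p 0.0662, adjusted 0.265) and rho was -0.83 (exact p 0.00827, adjusted 0.0661). With Txnrd1, r was -0.58 (exact permutation p 0.101, adjusted 0.269) and rho -0.68 (exact p 0.0503, adjusted 0.201). No relation passed after adjustment, and the sign for all 3 of these targets was negative. Without WSB/EiJ and NZO/HlLtJ, the 2 strains farthest from the median of Nfe2l2, r was 0.01 with Gclc, -0.80 with Gclm and -0.37 with Txnrd1 over 7 strains, so the value for Gclc rested on those strains.

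For the other members no relation passed either. Srxn1 had r of -0.49 and rho of -0.60 with Nfe2l2 (exact permutation p 0.182 and 0.0968, adjusted 0.364 and 0.258). For Gsr they were -0.38 and -0.45 (exact permutation p 0.315 and 0.23, adjusted 0.504 and 0.306). Keap1, the inhibitor, had -0.30 and -0.23 (exact permutation p 0.443 and 0.552, adjusted 0.507 and 0.631). Hmox1 was the only member with positive values, 0.34 and 0.50 (exact permutation p 0.387 and 0.178, adjusted 0.507 and 0.284), and Osgin1 was at -0.05 for both (exact permutation p 0.887 and 0.912, adjusted likewise). Without WSB/EiJ and NZO/HlLtJ, r was -0.28 for Srxn1, -0.09 for Gsr, 0.55 for Keap1, 0.33 for Hmox1 and 0.44 for Osgin1.

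**Figure D4:**
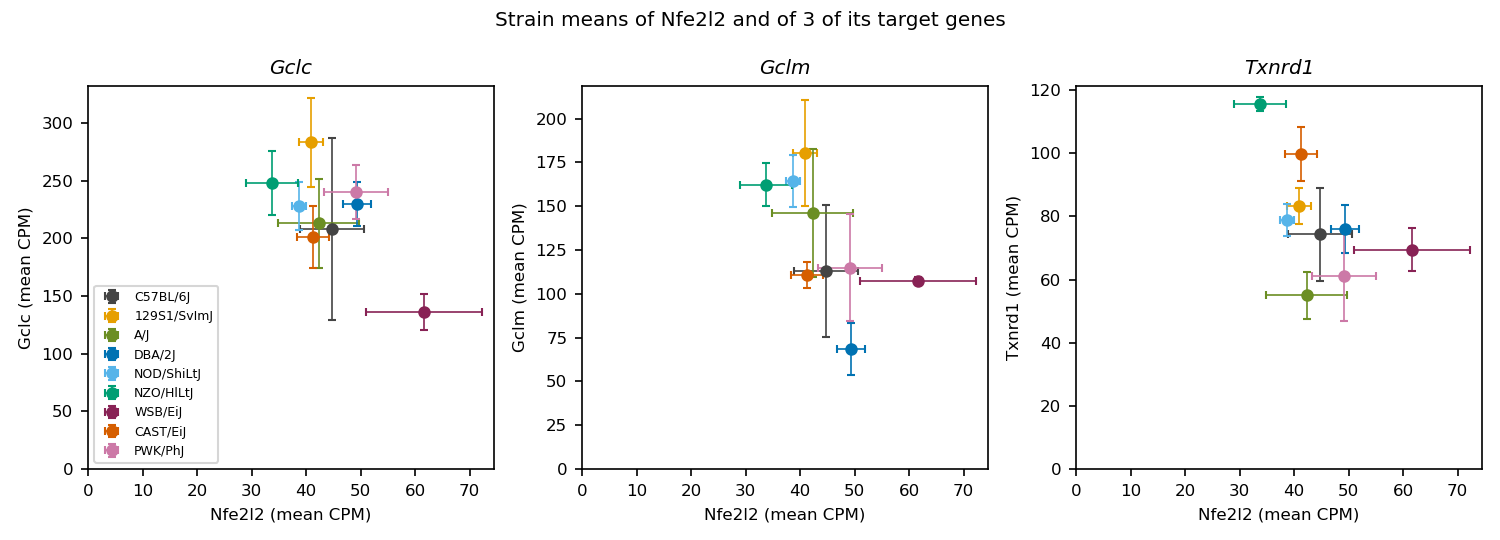
Strain means of Gclc, Gclm and Txnrd1 (CPM, vertical axes) against those of Nfe2l2 (CPM, horizontal axis), with bars of 1 SD over 3 libraries. WSB/EiJ, at 61.6 CPM of Nfe2l2, and NZO/HlLtJ, at 33.7 CPM, lie at the ends, and WSB/EiJ has the lowest Gclc at 136.4 CPM.

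A list of 45 other genes of the pathway was examined in 5 groups. Of these, 44 were tested and 36 differed among strains, with a median fold between the highest and lowest strain of 2.21, beside 74.2% of all tested genes called and a median fold of 2.27, so the list as a whole lies near the background. The counts of its groups, each of a few genes, are read against the same share. In the group of regulators, 6 of 9 were called and the small MAF genes Mafg and Mafk and the ligase scaffold Cul3 were not. Maff, another small MAF gene, was called (edgeR adjusted p 0.00209). It was low, at 3.16 ± 2.81 CPM in 129S1/SvImJ and 0.528 ± 0.108 CPM in NZO/HlLtJ. Dpp3, whose product binds KEAP1, had 107.8 ± 8.52 CPM in PWK/PhJ and 51.5 to 71.1 CPM as means elsewhere (log2 difference 0.86 ± 0.09, edgeR adjusted p 2.32e-08). Nfe2l1, a related transcription factor, was highest in C57BL/6J (193.3 ± 32.7 CPM, log2 difference 0.65 ± 0.14, edgeR adjusted p 0.00131) and lowest in CAST/EiJ (94 ± 13.1 CPM). Among thiol enzymes 6 of 7 were called, all but Gss. Glutaredoxin, Glrx, was at 50.9 ± 4.02 CPM in 129S1/SvImJ and 17.1 ± 3.5 CPM in C57BL/6J (log2 differences 0.71 ± 0.16 and -1.05 ± 0.19, edgeR adjusted p 0.00262 and 0.000259). Sesn2, a stress-induced sestrin, was at 9.54 ± 1.23 CPM in CAST/EiJ and 4.2 ± 0.0386 CPM in DBA/2J (edgeR adjusted p 0.000285 and 0.00679).

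Detoxification and export genes were called in 16 of 18 tested cases, where 74.2% of all tested genes were called. Ephx1 and Abcc4 were the exceptions, and Cbr3 was too low to test. The glutathione transferase gene Gstm3 averaged 136.3 ± 32.2 CPM in NOD/ShiLtJ and 0.235 ± 0.0332 CPM in PWK/PhJ, and its relative Gsta2 104 ± 7.53 CPM in CAST/EiJ and 8.05 ± 2.75 CPM in A/J. Both belong to families of close copies and had counts that were not whole in all 27 libraries, so their levels are uncertain. In the same group, Gsta1, Gstm1, Gstp1 and Cyp2a5 also had counts that were not whole in all 27 libraries. Of 5 genes that supply NADPH, 3 were called. Malic enzyme, Me1, was at 280.1 ± 99.9 CPM in PWK/PhJ and 72.6 ± 19 CPM in A/J (edgeR adjusted p 9.45e-07 and 0.0008), and transaldolase, Taldo1, was at 73 ± 4.04 CPM in NOD/ShiLtJ and 43.8 ± 4.21 CPM in A/J (edgeR adjusted p 0.0418 and 0.0109). All 5 heme and iron genes were called. The ferritin light chain gene Ftl1 was at 11.4 ± 1.12 CPM in CAST/EiJ and at means of 739.5 to 1943.4 CPM in the other 8 strains (log2 difference -6.94 ± 0.23, edgeR adjusted p 5e-18), but its counts were not whole in any library, and the gene has near-identical copies, so this value is uncertain. Biliverdin reductase B, Blvrb, which acts after heme oxygenase, was highest in 129S1/SvImJ (55.6 ± 9.46 CPM, log2 difference 1.31 ± 0.16, edgeR adjusted p 1.86e-06), the strain with the lowest Hmox1, and lowest in A/J (13.9 ± 1.79 CPM, edgeR adjusted p 0.00136), the strain with the highest.

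By strain, A/J had 16 of the 44 tested pathway list genes lower than the mean of the other 8 and 3 higher, where 11.6% and 15.9% of all genes were called. Those lower included Nqo1, Txn1, Prdx6, Gstp1, Me1, Pgd and Blvrb. The A/J counts were 10 lower without its replicate 3, 12 lower and 1 higher with the marker covariates, and 5 higher without WSB/EiJ replicate 4. In CAST/EiJ, 12 list genes were higher and 10 lower (all genes 20.1% and 17.8%), with 7 higher without its replicate 1 and 5 lower without its replicate 5. PWK/PhJ had 8 higher and 7 lower (19.4% and 14.8%), with 13 higher under the covariates, 3 lower without replicate 2 and 2 lower without replicate 3. For 129S1/SvImJ, 10 were higher and 1, Dpp3, was lower (10.5% and 7.86%), with 6 higher without its replicate 2 or under the covariates and 0 lower without its replicate 1 or 3.

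WSB/EiJ had 9 list genes higher, Nqo1 and Gsta1 among them, and 3 lower, namely Txn1, Gstp1 and Blvrb (all genes 15.5% and 9.25%). Gsta1 averaged 31.6 ± 31.1 CPM there, with counts that were not whole in all 27 libraries, so its level is uncertain. Gstm3, also counted higher, averaged 39.1 ± 39.9 CPM in WSB/EiJ, with libraries from 9.9 to 84.5 CPM. The number of list genes higher in WSB/EiJ was 5 without its replicate 3 or 4. The number lower was 0 without its replicate 2, 1 without replicate 3, 5 without replicate 4 or without PWK/PhJ replicate 1, 5 with DESeq2 and 6 under the covariates. NZO/HlLtJ had 3 higher and 9 lower (14.8% and 12.9%), with 2 lower without its replicate 1, 5 without replicate 2, and 1 higher and 4 lower under the covariates. Nqo1, Gsta2, Gstm3, Slc40a1 and Abcb6 were called lower in NZO/HlLtJ and higher in WSB/EiJ, the same direction as Nfe2l2. No list gene was called higher in NZO/HlLtJ and lower in WSB/EiJ. NOD/ShiLtJ had 9 higher, including Prdx1, Txn1 and Cbr1, and 2 lower, Gsta2 and Abcc2 (14.9% of all genes in either direction). Leaving out a NOD/ShiLtJ library gave 4 or 5 higher and 1 lower. In C57BL/6J, 7 were higher and 3 lower (11.6% and 6.5%), with 2 higher and 1 lower under the covariates. The number lower in C57BL/6J was 7 without its replicate 1, 1 without its replicate 4, and 6 without PWK/PhJ replicate 1 or with DESeq2. DBA/2J had 2 higher and 5 lower (9.5% and 3.78%), with 3 lower without its replicate 2 or 3. Both list genes higher in DBA/2J were Gstm3 and Ftl1, whose levels are uncertain. The counts of genes higher in C57BL/6J, 129S1/SvImJ and NOD/ShiLtJ also include both, those of NZO/HlLtJ and PWK/PhJ include Ftl1, and that of WSB/EiJ includes Gstm3. Gsta2, also uncertain, was counted higher in 129S1/SvImJ, WSB/EiJ, CAST/EiJ and PWK/PhJ. It was counted lower in A/J, DBA/2J, NOD/ShiLtJ and NZO/HlLtJ. Gstm3 was counted lower in NZO/HlLtJ, CAST/EiJ and PWK/PhJ, and Ftl1 in CAST/EiJ. The mean of the other 8 strains for Ftl1 includes the low CAST/EiJ value. That for Gstm3 includes low values in NZO/HlLtJ (0.753 CPM), CAST/EiJ (1.28 CPM) and PWK/PhJ (0.235 CPM).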

How the data were processed

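For 27 hepatocyte RNA-seq libraries, the authors deposited the estimated counts of each Ensembl gene in a shared table, unscaled for depth. Per the labels' protocols, polyadenylated RNA was selected and libraries were made with a TruSeq kit whose name does not state strand marking. The submitters' processing notes name FastQC 0.11.5, DESeq2, GRCm38 and mm10, with no role given. The aligner, the counting program and whether strain genomes were used are not given in the sources used here. Of the values, 11.1% were not whole (tolerance 1e-06).

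Counts were rounded. GENCODE M21 named 42462 of 43346 IDs, and the rest held 0.0579% of counts. Genes passing filterByExpr (14482) were fitted in edgeR 4.0.16 (with limma 3.58.1 under R 4.3.3) with strain as the only factor and TMM factors of 0.722 to 1.226. An overall test took all strain terms at once, and 9 contrasts set a strain against the mean of the other 8. Log2 CPM used a prior count of 2. All 10 members are reported. In each pathway list the 2 genes with the largest F are named, and for Nfe2l2 and for the member with the largest F the 4 genes most alike. Cul3, Gss and other genes named as exceptions, and Maff, were named after their values were seen. So were the list genes named by strain and those named for counts that were not whole. The members and lists were chosen with earlier results of these data known. Of 9 planned relations 8 were computed, because Slc7a11 did not pass the filter.

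Within-strain pairs of libraries differed beyond counting noise (chi-square per degree of freedom 23.7 to 129.1 over 27 pairs). The p-values measure the spread between these libraries, and the limit for a count of 0 covers counting error only. Over all tested genes, replicate numbers showed no pairing of libraries across strains. Same-numbered libraries had correlations of their deviations from the strain means of -0.29 to 0.28, with 17 of 76 above 0.1. Those of differently numbered libraries were -0.47 to 0.34, with 44 of 248 above 0.1. A shared factor that acts on few genes need not show in this check. Alternatives were DESeq2 1.42.0, size factors by median of ratios, testing without a filter or with one at a mean of 10 counts, a block for the replicate number, Kupffer and endothelial marker means as covariates, a prior count of 0.5, and leaving out each library. The scripts were tested on simulated data.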

Additional observations from a re-analysis of the deposited data

How the results depend on the processing

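The number of members called among strains was 8 in the alternatives that kept all libraries and 8 to 9 on leaving out each library. Genes called were 10352 to 11245 on leaving out each library and 9350 with the replicate block (the replicate number as a factor). Member and strain pairs called were 24 to 32 on leaving out each library, 31 with DESeq2, 21 with the marker covariates (15 of the 27 calls kept) and 23 with the replicate block, where 22 of the 27 were kept. The block ended the calls of Gclc in 129S1/SvImJ (log2 difference 0.41, edgeR adjusted p 0.0549), Gclm in NZO/HlLtJ (0.43, 0.0719), Txnrd1 in CAST/EiJ (0.31, 0.194), Srxn1 in WSB/EiJ (-0.37, 0.0821) and Hmox1 in CAST/EiJ (-0.64, 0.172). Over all tested genes the numbers showed no pairing: 7 of 27 libraries were closest to a same-numbered library of another strain. Pathway list genes called were 33 to 38 on leaving out each library and 31 with the block, under which CAST/EiJ had 6 list genes higher and 4 lower in place of 12 and 10. With the block, 129S1/SvImJ had 0 list genes lower in place of 1, Dpp3. Without WSB/EiJ and NZO/HlLtJ, the relation of Nfe2l2 to Keap1 (r 0.55), Gclc (0.01) and Osgin1 (0.44) changed sign, and that to Osgin1 ran from -0.27 to 0.12 on leaving out each library. The causes were not tested.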

Other observations

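Within strains, several libraries stood at an end for most of the 9 tested members. A/J replicate 3 was the lowest of its strain for 8 of them, all but Nfe2l2. It had the largest count total (35078483) and the highest summed hepatocyte markers (317926.3 CPM) of all libraries, and the part of either was not tested. In 129S1/SvImJ, replicate 3 was the lowest for 7, and in PWK/PhJ replicate 1 was the lowest for 6 and the highest for Hmox1. C57BL/6J replicate 1 and DBA/2J replicate 4 were each the highest of their strain for the same 7 members, Keap1, Gclc, Gclm, Txnrd1, Srxn1, Gsr and Osgin1. Hmox1 was lowest in that DBA/2J library, at 3.38 CPM against 6.59 and 8.29 CPM. With 3 libraries a strain, these orders carry no test.

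Over the 9 strain means, the genes most like Nfe2l2 among 6110 genes averaging at least 10 CPM were Anxa6 (r 0.97), Aspg (0.94), Mst1 (0.93) and Ergic1 (0.92), all highest in WSB/EiJ and lowest in NZO/HlLtJ. Anxa6, which encodes an annexin, had a mean of 186.3 CPM in WSB/EiJ and 101.6 CPM in NZO/HlLtJ. Those most like Gsr were Arpc3, Rhoa, Gpbp1 and Gng5, each with r of 0.97, highest in CAST/EiJ and lowest in A/J. The counts of Rhoa were not whole in all 27 libraries. These correlations are descriptions over 9 points that share libraries and scaling, picked as the highest of many.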
